A study of Homo sapiens with 24 samples.

Results

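The comparison of cells that expressed miR-155 with cells that carried the empty vector rests on 6 of the 24 RNA-seq libraries of the study, 3 labelled miR-155 and 3 labelled Empty, and on every gene that passed a minimum count in the exon count table of their batch, which was 14054 of 29794 genes. The host cells were Flp-In T-REx 293, a derivative of the HEK293 human embryonic kidney line. They were transduced with a lentiviral vector whose doxycycline-inducible cassette drives GFP and carries the miRNA hairpin, in an artificial backbone, within an intron upstream of the GFP coding sequence. The control cells carried the parent GFP vector without a hairpin. Both groups received 1 µg/mL doxycycline for 7 days and 1 mg/mL geneticin for 6 days, so induction and selection were shared, and the replicates of a group were transduced and kept as separate cultures. The level of the mature miRNA was not among the values analysed here. In the same batch, 3 libraries each of cells with miR-133a, miR-302a, miR-372 and miR-373 served as a second reference that uses no empty vector library.

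MiR-155 is processed from a non-coding transcript that is induced in activated B cells, T cells, macrophages and dendritic cells, and it is known for its part in antibody responses, inflammation and lymphoma. A miRNA guides an Argonaute protein to mRNAs through pairing of its seed, the bases near its 5′ end, usually with sites in the 3'UTR, and the bound mRNA is then deadenylated, degraded and translated less. Its best known targets include BACH1, a repressor of antioxidant genes, JARID2, a partner of Polycomb repressive complex 2, and regulators of Toll-like receptor, cytokine and TGF-β signalling. The HEK293 line is not an immune cell, so many genes that the miRNA meets in lymphocytes and macrophages are little expressed in it.

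The mature miRNA and some of the sites it could pair with are shown because all counts by site below refer to them. In the miRNA, given in the RefSeq record as RNA, capitals mark the seed at bases 2 to 8. In each 22-base window of a 3'UTR, read 5′ to 3′ on the mRNA strand from GRCh37, capitals mark an 8mer, the complement of the seed followed by A. The 8mer reads AGCATTAA. A 7mer-m8 site lacks its final A (AGCATTA), a 7mer-A1 site lacks its initial A (GCATTAA) and a 6mer lacks both (GCATTA).
hsa-miR-155-5p, mature miRNA: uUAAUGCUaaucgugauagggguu
BACH1, chr21:30717318-30717339, plus strand: cctataaacagtttAGCATTAA
JARID2, chr6:15520614-15520635, plus strand: actaattttgttttAGCATTAA
JARID2, chr6:15521416-15521437, plus strand: caccttcacaagtcAGCATTAA
CARD10, chr22:37886416-37886437, minus strand: gctgcacattatggAGCATTAA
DET1, chr15:89055934-89055955, minus strand: ctgtgggaatgcccAGCATTAA
TAB2, chr6:149731659-149731680, plus strand: ccttaaaataaaaaAGCATTAA
ETS1, chr11:128331329-128331350, minus strand: atgttgagctaagaAGCATTAA
ETS1, chr11:128329257-128329278, minus strand: actctgggttttacAGCATTAA
MSH6, chr2:48034756-48034777, plus strand: ctacatgagattaaAGCATTAA
SLC4A8, chr12:51905989-51906010, plus strand: cattatcactgtacAGCATTAA
The genes of the windows from BACH1 to TAB2 fell, those of the ETS1 and MSH6 windows did not pass the test, and SLC4A8 rose, although all of these windows hold the same 8 letters. They were chosen for display after their values were seen. A site in a sequence is a description and not evidence of binding.

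The exon counts summed to 13200892, 15066257 and 14141696 reads in the 3 empty vector libraries and to 15050704, 13342837 and 13814053 in miR-155 replicates 1, 2 and 3. All 10 markers of the HEK293 line that were found in the table were measured, and their summed level was 1760 to 1800 CPM, the counts scaled to a common library size, in the empty vector libraries and 2020 to 2190 CPM with miR-155. Of 24 blood cell markers, 20 held at most 10 reads in any of the 6 libraries, CD3D held none, and PTPRC, the pan-leukocyte antigen, held at most 1. The summed level of the blood markers, 158 to 162 CPM with the empty vector and 178 to 197 CPM with miR-155, came mostly from LCP1, an actin-bundling protein, at 147 to 186 CPM. Of the 7 blood markers tested 1, CORO1A, was called higher (14.3%), and that call was lost without Empty replicate 1 or miR-155 replicate 2. MIR155HG, the host transcript of the endogenous miRNA, held at most 3 reads in any library. The miR-155 replicate 2 library stood apart. The fitted slope of log2 expression on log2 exon length was -0.10 in it, against 0.0013 and 0.01 in replicates 1 and 3 and 0.04 to 0.08 in the empty vector libraries, and genes with exons of over 5 kb took 29.2% of its counts against 33.3% and 33.5% in the other miR-155 libraries. Outside these groups, miR-372 replicate 2 had a like slope (-0.10) and share (28.9%). For most gene lists the counts are therefore also given without miR-155 replicate 2 and with an offset for exon length that was chosen after the data were seen. In bulk libraries, fewer cells of a kind and less RNA per cell cannot be told apart.

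Between miR-155 and the empty vector, 676 genes were lower (4.81% of those tested) and 397 were higher (2.82%) by the edgeR quasi-likelihood test at an adjusted p under 0.05. Most changes were small. The median called gene fell by 0.553 or rose by 0.397 on the log2 scale, 82 genes fell and 23 rose by more than 1, and 281 of the lower and 285 of the higher genes moved by less than 0.5. In 674 of the lower genes all miR-155 libraries lay below all empty vector libraries, which held for 16.2% of all genes tested, and in all 397 of the higher genes they lay above, as in 14.5% of all genes. The called lower genes had a median exon length of 5503 bases and the called higher genes of 2526, against 3584 over all genes. Without miR-155 replicate 2, 370 genes were lower and 144 higher, with median lengths of 5037 and 3008 bases. The lower calls were also 359 without Empty replicate 2 and 418 without Empty replicate 3, and the higher calls 239, 135 and 176 without Empty replicates 1, 2 and 3. Leaving out miR-372 replicate 2, which is in neither group of this comparison, gave 894 lower and 627 higher genes, all 676 and 397 among them. The count filter, the normalization and the shared estimate of spread were all computed again without that library. With the length offset, 628 were lower and 397 higher, with median lengths of 4442 and 3708 bases. The part of library quality in the smaller changes was not tested.

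**Figure D1:**
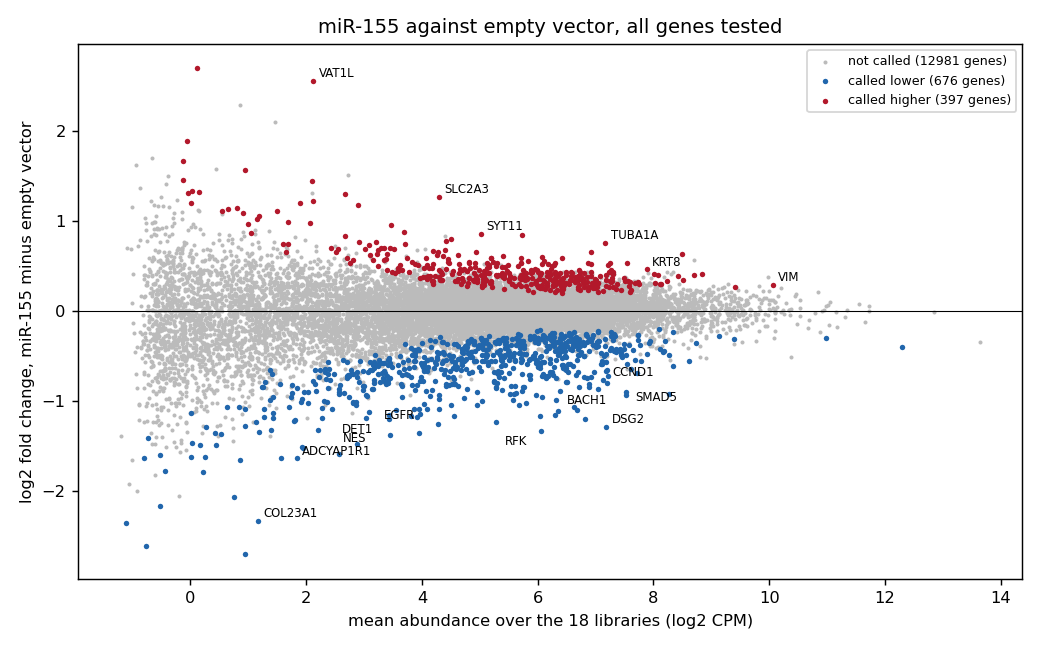
The log2 fold change of each of the 14054 genes tested (miR-155 minus empty vector, vertical axis) is plotted against its mean abundance over the 18 libraries of the batch (log2 CPM, horizontal axis). Blue points are the 676 genes called lower and red points the 397 called higher at an adjusted p under 0.05, and grey points are the other 12981 genes. Among abundant genes the lower calls reach further from 0 than the higher ones.

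Genes were ranked here only if they were called, had a mean log2 CPM of 3 or more and showed no overlap between the groups. Among these the largest falls were in NES (-1.38), TMTC2 (-1.35), RFK (-1.33), DSG2 (-1.28), EGFR (-1.25), CARD10 (-1.23), MYO1D (-1.20), DET1 (-1.19), IRF8 (-1.18), MYB (-1.18), DPY19L1 (-1.17) and MICB (-1.16), all on the log2 scale and all still called when any 1 of the 6 libraries was left out. They are genes of unlike function. RFK, riboflavin kinase, which makes flavin mononucleotide (ENSG00000135002.7, chr9:79000442-79009433, minus strand), had 67.0, 61.2 and 66.7 CPM in the empty vector libraries and 23.8, 30.1 and 23.8 CPM with miR-155, a level 2.51-fold lower (SE of the log2 fold change 0.121, adjusted p = 1.18e-06). DSG2, a cadherin of desmosomes (ENSG00000046604.8, chr18:29078140-29128971, plus strand), had 165, 177 and 177 CPM and then 71.3, 63.7 and 77.9 CPM, 2.44-fold lower (SE 0.0913, adjusted p = 1.06e-07). Both genes were named under that rule, so the lack of overlap between their groups is no separate result. RFK holds 3 7mer-A1 sites and DSG2 holds 2 7mer-m8 sites, and neither holds an 8mer.

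CARD10, the scaffold that passes receptor signals to BCL10 and MALT1 and so to NF-κB, was at 34.7, 42.6 and 43.2 CPM in the empty vector libraries and at 20.3, 11.6 and 19.5 CPM with miR-155, with miR-155 replicate 2 lowest. IRF8, a transcription factor of B cells and myeloid cells, was low in this line and went from 8.10, 7.12 and 7.90 CPM to 3.20, 3.29 and 3.68 CPM. MYB, a transcription factor of blood progenitors, went from 18.1, 17.8 and 18.9 CPM to 7.96, 6.96 and 9.28 CPM. In these genes the naming rule required every miR-155 library to lie below every empty vector library. Their adjusted p were 2.18e-05, 2.31e-05 and 0.000795. MICB, a stress-induced ligand of the NKG2D receptor of natural killer cells, had 17.3, 17.2 and 17.9 CPM and then 7.502, 8.489 and 7.436 CPM (adjusted p = 0.000142), and only a 6mer in its 3'UTR. NES, the intermediate filament nestin, held no site and fell from 7.05, 6.39 and 7.62 CPM to 2.81, 2.22 and 3.04 CPM (adjusted p = 0.000142). Of the other genes of this group, CARD10, EGFR, MYO1D, DET1 and DPY19L1 hold an 8mer, and TMTC2, IRF8 and MYB a 7mer-m8 as their best site. MYO1D overlaps 6 other annotated genes on its strand and DET1 overlaps 2, so their counts may share reads.

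The rises were smaller. Above the same abundance, and again among called genes without overlap between the groups, they were led by SLC2A3 (1.27), SYNGR3 (0.95), JOSD2 (0.88), SYT11 (0.86), ZCCHC12 (0.85), RINL (0.80), H1-2 (0.78), CALCB (0.77), TUBA1A (0.76), NTS (0.74), SELENOM (0.74) and IFI6 (0.70), and none of these 12 has a site for miR-155 in the 3'UTR searched, 6mers included. NTS holds 1 match in its coding sequence. In SLC2A3 and ZCCHC12 all 12 libraries of the other miRNAs also lay above the controls, at 13.6 to 27.9 and 51.5 to 60.9 CPM. These 2 rises were thus shared by the other miRNA lines, at least in part. SLC2A3, the neuronal-type glucose transporter GLUT3 (ENSG00000059804.11, chr12:8071826-8171603, minus strand), had 11.2, 8.04 and 10.9 CPM with the empty vector and 24.7, 24.9 and 23.2 CPM with miR-155, 2.41-fold higher (SE 0.117, adjusted p = 1.18e-06). SLC2A3 overlaps 2 other annotated genes on its strand, so its counts may share reads. SYT11, a synaptotagmin of vesicle traffic (ENSG00000132718.7, chr1:155829358-155854990, plus strand), had 31.4, 30.0 and 26.2 CPM and then 56.6, 50.8 and 52.1 CPM, 1.82-fold higher (SE 0.0846, adjusted p = 2.33e-06). The miR-155 libraries lay close together in both, and by the naming rule above every control. TUBA1A, an α-tubulin of neurons whose near-identical paralogs can share reads, rose from 138, 120 and 129 CPM to 200, 251 and 206 CPM (adjusted p = 6.43e-05). The call of JOSD2, a deubiquitinase, did not hold without miR-155 replicate 2 (adjusted p = 0.0528), that of NTS, neurotensin, without Empty replicate 2 (0.0519), and that of SELENOM without either (0.0783 and 0.0576). Below that abundance, VAT1L had 1.73, 2.50 and 2.73 CPM with the empty vector and 14.2, 12.4 and 14.9 CPM with miR-155 (log2 fold change 2.56, adjusted p = 6.12e-07), although it overlaps 2 other genes on its strand.

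Genes known from the literature as targets of miR-155 formed the list with the largest share of falls. Of 53 measured members, 29 fell and 0 rose by the edgeR test (1 member rose at an unadjusted p under 0.05, and 0 by the DESeq2 Wald test), against 4.81% and 2.82% of all genes. The median log2 fold change was -0.417, against 0.006 over all genes. In 38 members all miR-155 libraries lay below all controls, and in 1 above. All 29 that fell hold a 7mer or 8mer in the 3'UTR, as do 16 of the 24 others. Without miR-155 replicate 2, 25 fell, with the length offset 27, and between 23 and 25 when any 1 library was left out. The list was written with earlier results of these data known, so its count describes the members and is not independent support.

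BACH1, the heme-binding repressor of antioxidant genes (ENSG00000156273.11, chr21:30566392-31003071, plus strand), had 95.3, 88.2 and 85.8 CPM in the empty vector libraries and 43.9, 37.4 and 43.2 CPM with miR-155, 2.16-fold lower (SE 0.0895, adjusted p = 3.74e-07). Its 3'UTR holds the 8mer shown above and 3 7mer-m8 sites, and its annotated span overlaps 7 other genes. JARID2 (ENSG00000008083.9, chr6:15246300-15522273, plus strand) carries both 8mers shown and went from 76.1, 83.4 and 77.0 CPM to 38.6, 28.1 and 39.2 CPM, 2.23-fold lower (SE 0.112, adjusted p = 2.08e-06). In both genes the groups did not overlap, and miR-155 replicate 2 was the lowest library. DET1, an adaptor of the COP1 ubiquitin ligase, went from 11.18, 11.01 and 12.94 CPM to 4.44, 5.43 and 5.52 CPM, and RAB11FIP2, an adaptor of recycling endosomes, from 83.1, 78.6 and 74.8 CPM to 39.0, 37.1 and 42.9 CPM. ZNF652, a zinc finger repressor, fell by 1.09 on the log2 scale, with miR-155 replicate 2 at 6.96 CPM and the other 2 libraries at 11.1 and 12.8 CPM, against 20.7 to 23.5 CPM in the controls.

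Within the list, the falls were spread over its roles. Of 9 signalling phosphatases, suppressors and adaptors 4 fell, of 5 SMAD and small GTPase genes 3 fell, of 22 transcription factors and chromatin proteins 11 fell, and of 17 cell cycle, repair and other genes 11 fell. The classical immune targets INPP5D (SHIP1) and SOCS1 were barely expressed in this line. INPP5D, an inositol phosphatase that restrains PI3K signalling, had 2.33, 2.44 and 2.31 CPM with the empty vector and 2.15, 0.918 and 2.05 CPM with miR-155, so only replicate 2 was clearly lower (adjusted p = 0.442). SOCS1, a feedback inhibitor of JAK kinases, was under 1 CPM in every one of the 6 libraries (adjusted p = 0.773). FOS, also an 8mer gene, was at 1.275, 0.3954 and 0.8392 CPM with the empty vector and at 1.5, 1.224 and 1.275 CPM with miR-155 (log2 fold change 0.70, adjusted p = 0.352). Differences in such genes were hardly detectable at this depth.

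Other members were well expressed and did not pass the test although they carry an 8mer. ETS1, a transcription factor of lymphocytes with the pair of 8mers shown above, had 16.6, 15.5 and 18.2 CPM with the empty vector and 17.2, 14.8 and 16.4 CPM with miR-155 (log2 fold change -0.06, SE 0.103, adjusted p = 0.782). MSH6, a subunit of the mismatch recognition complex, had 290, 298 and 286 CPM and then 289, 305 and 287 CPM (log2 fold change 0.01, SE 0.0826, adjusted p = 0.951). LSM14A, an mRNA decapping factor, had 378, 394 and 377 CPM and then 348, 378 and 371 CPM (log2 fold change -0.07, SE 0.0713, adjusted p = 0.597). In all of these the groups overlapped. Of 8 mismatch repair genes measured 0 were called by the edgeR test (1 was lower at an unadjusted p under 0.05, and 0 by the DESeq2 Wald test). Over all genes 4.81% were lower and 2.82% higher, so 8 genes are too few to read a result from that count.

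**Figure D2:**
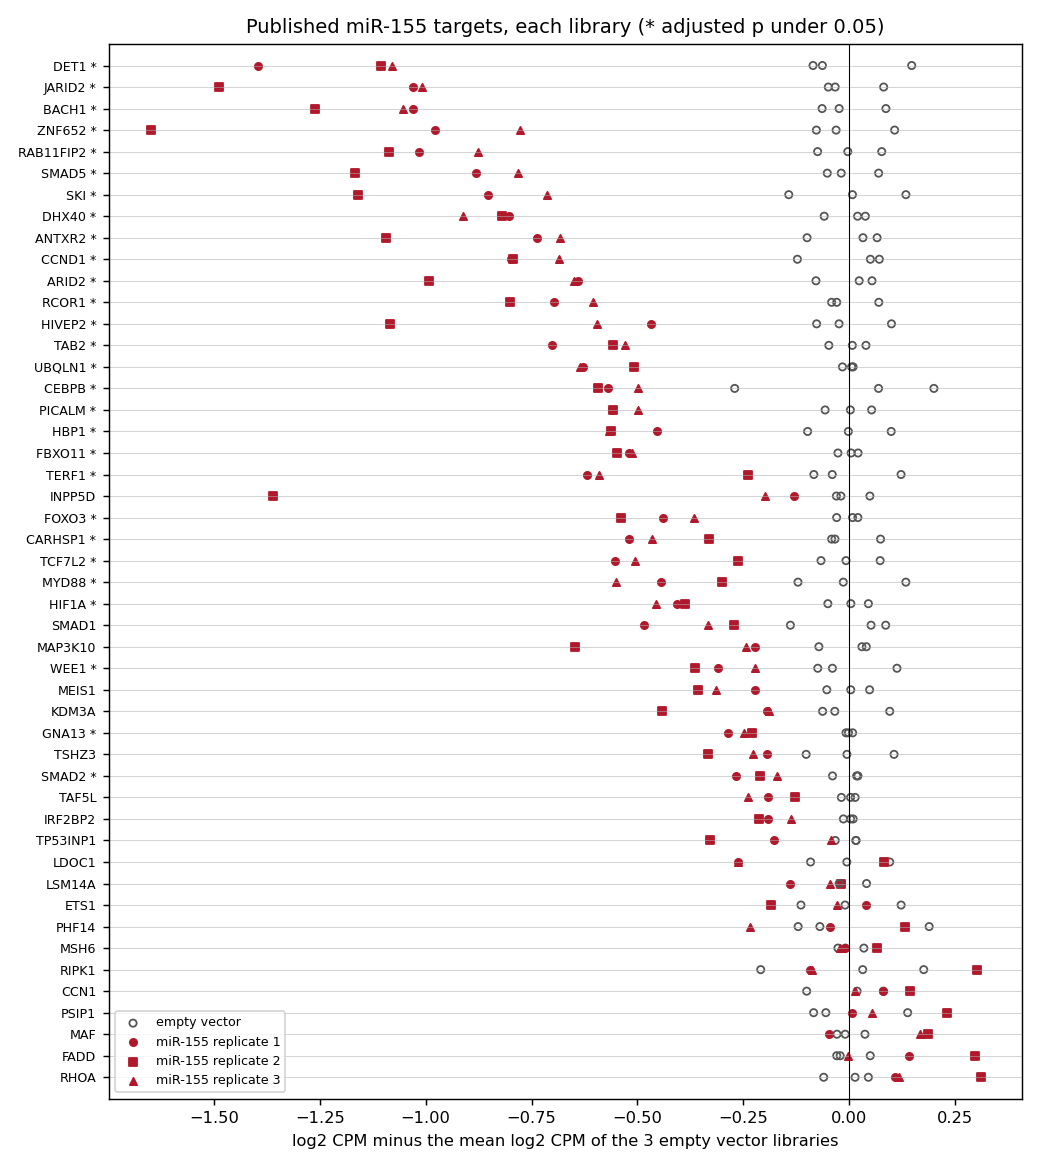
Each row is a published miR-155 target, ordered by log2 fold change, and the horizontal axis gives log2 CPM in each library minus the mean log2 CPM of the 3 empty vector libraries. Open circles are the empty vector libraries, filled red symbols the 3 miR-155 libraries, and an asterisk marks an adjusted p under 0.05. FOS and SOCS1 are left out for their low counts, and 3 other members are not shown. From DET1 down to HIF1A the red symbols lie left of the open circles, and in the lowest rows, such as MSH6, FADD and RHOA, they do not.

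Over all genes, the fall followed the kind of seed match in the 3'UTR, a property that played no part in the comparison. The median log2 fold change was -0.234 in 654 genes whose best site was an 8mer, -0.118 in 1043 with a 7mer-m8, -0.105 in 807 with a 7mer-A1, -0.043 in 1248 with a 6mer and 0.046 in 9289 with none of these. The shares called lower were 29.4%, 14.2%, 12.9%, 4.25% and 1.77% in that order. Among the 661 called lower genes with a 3'UTR, 444 (67.2%) hold a 7mer or 8mer, against 19.2% of all genes and 5.34% of the called higher genes. Those shares were 75.9% of the lower and 3.52% of the higher genes without miR-155 replicate 2, and 62.6% and 11.5% with the length offset. The called lower genes without such a site numbered 232, the 15 without a searched 3'UTR included, and NES, MICB, IL4R, MYC and FGFR3 are among them.

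More sites went with larger falls. Of genes with no 7mer or 8mer 2.06% fell, of those with 1 site 15.0%, with 2 sites 24.7% and with 3 or more 31.0%, and their median log2 fold changes were 0.034, -0.119, -0.210 and -0.234. In 47 genes with 2 or more 8mers the median was -0.266, and 17 fell. Long 3'UTRs hold more sites, so genes were also compared within classes of 3'UTR length. The medians of 8mer genes were -0.229, -0.228 and -0.238 for 3'UTRs of 500 to 1500, 1500 to 3000 and over 3000 bases, and those of genes without a site 0.059, 0.004 and -0.039. In 3'UTRs of up to 500 bases they were -0.115, in only 14 8mer genes, and 0.119. In 3'UTRs over 1500 bases whose only site was an 8mer, 25 of 72 genes fell when the site was within 300 bases of an end (median -0.234) and 58 of 253 when it was farther in (median -0.201). Genes with a 7mer-m8 or 8mer in the coding sequence and none in the 3'UTR had a median of -0.070, with 13 of 595 lower, against 0.054 and 151 of 8694 in genes with neither, and their median exon lengths differed too, at 5029 and 3153.5 bases.

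The difference in median between 8mer genes and genes without a site was -0.28 in the fit. Computed for each miR-155 library against the mean of the controls it was -0.244, -0.370 and -0.227 in replicates 1, 2 and 3 (SD 0.078). In the 12 libraries of the other miRNAs, which were compared with the same controls, it ranged from -0.197 to -0.016, so it was below 0 in all of them. The lowest of these was miR-372 replicate 2, which had an exon length slope of -0.10 like miR-155 replicate 2. All 3 miR-155 libraries were thus below all 12 others. With miR-155 set against the other 4 miRNAs in place of the empty vector the difference was -0.18, and with the length offset against the empty vector it was -0.182. Genes are not independent replicates, so these differences are descriptions.

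**Figure D3:**
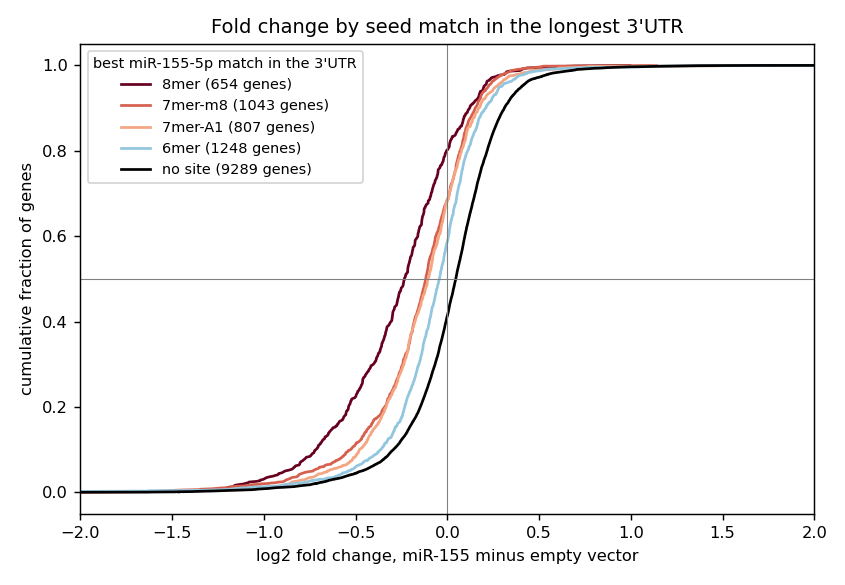
Cumulative fraction of genes (vertical axis) by log2 fold change, miR-155 minus empty vector (horizontal axis, drawn from -2 to 2), for genes grouped by their best miR-155-5p match in the longest annotated 3'UTR. The curves run from left to right in the order 8mer (median -0.234), 7mer-m8, 7mer-A1, 6mer and no site (median 0.046), and those of the 7mers lie close together.

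In Toll-like receptor, IL-1 and NF-κB signalling, 3 of 15 adaptors and ubiquitin ligases were lower and 1 was higher, and 1 of 9 kinases was lower. Receptors of this pathway recruit MYD88, which through IRAK and TRAF proteins activates TAK1 (MAP3K7), held by TAB2, and then the IκB kinases. TAB2 had 98.2, 100 and 94.5 CPM with the empty vector and 60.0, 66.4 and 67.7 CPM with miR-155 (log2 fold change -0.59, adjusted p = 1.76e-05). MAP3K7 had 115, 104 and 115 CPM and then 73.7, 86.3 and 79.5 CPM (-0.48, adjusted p = 0.000251). TRAF3, an adaptor that holds back non-canonical NF-κB signalling, had 103, 129 and 120 CPM and then 72.3, 61.3 and 78.8 CPM (-0.73, adjusted p = 6.62e-05). No library of either group crossed into the other in these genes, although TAB2 overlaps 4 other genes and TRAF3 overlaps 2.

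Over the 37 measured genes of that pathway 6 were lower and 1 was higher (16.2% and 2.70%, against 4.81% and 2.82% of all genes), with a median of -0.007. Besides those named, MYD88 (-0.43), CYLD (-0.33) and OTULIN (-0.29) were lower, the last 2 of them deubiquitinases that dampen NF-κB signalling, named here after their values were seen. TRADD, an adaptor of the TNF receptor without a site, was higher (0.43). All 6 lower genes hold a 7mer or 8mer, as do 5 others of the list. None of the 5 NF-κB and IRF transcription factors listed was called by the edgeR test. The calls of TAB2, MAP3K7 and TRAF3 held on leaving out any library. That of MYD88 was lost on leaving out 4 of the 6, with an adjusted p of up to 0.166, and that of TRADD on leaving out any of the 6, with up to 0.154. Between 3 and 6 genes of the list were lower on leaving out a library, 4 of them without miR-155 replicate 2 and 3 without Empty replicate 2, and with the length offset 4 were lower and 0 higher.

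In JAK-STAT and cytokine signalling, the calls were of receptors and inhibitors. Of 14 receptor subunits measured 5 were lower, of 15 inhibitors 2, and of 4 JAK kinases and 10 STAT and related factors 0 by the edgeR test. IL4R, the receptor for IL-4 and IL-13, was at 11.6, 12.1 and 13.2 CPM with the empty vector and at 5.81, 4.44 and 6.94 CPM with miR-155 (log2 fold change -1.10, adjusted p = 0.000227). IL1RAP, the shared subunit of IL-1 family receptors, was at 9.23, 9.16 and 9.93 CPM and then 5.48, 4.82 and 4.46 CPM, 1.91-fold lower (adjusted p = 0.000184). Neither holds a site in the 3'UTR searched, and IL1RAP overlaps 2 other genes. IL6R, which holds an 8mer, was at 17.6, 17.3 and 19.7 CPM and then 13.6, 11.3 and 11.5 CPM (adjusted p = 0.00604). These calls held on leaving out any library, and the groups did not overlap. Over the list of 43 the counts were 7 lower (16.3%, against 4.81% of all genes) and 0 higher, with 3 higher at an unadjusted p under 0.05 and 0 by the DESeq2 Wald test. The lower count was 4 without miR-155 replicate 2, and likewise 4 without Empty replicate 2, Empty replicate 3 or miR-155 replicate 1, and 5 with the length offset.

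In TGF-β, activin and BMP signalling, where receptors phosphorylate SMAD proteins and SKI represses their targets, SMAD5 and SKI fell most. SMAD5, an effector of BMP receptors, went from 212, 200 and 195 CPM to 110, 90.0 and 118 CPM (log2 fold change -0.93, adjusted p = 1.18e-06), and SKI from 179, 217 and 199 CPM to 110, 88.6 and 121 CPM (-0.90, adjusted p = 4.87e-06). Both hold a 7mer-m8 as their best site, and in both the groups were far apart. Of 40 members measured 7 were lower (17.5%, against 4.81% of all genes), 3 of them among 8 SMADs and 2 among 10 receptors, and 1 was higher (2.5%, against 2.82%), with a median of -0.066. None of the 11 ligands was called by the edgeR test. SMAD2, with an 8mer, went from 70.1, 70.0 and 67.3 CPM to 57.4, 59.7 and 61.4 CPM (-0.22, adjusted p = 0.0468), but it overlaps 3 other genes, its call was lost on leaving out any library (adjusted p of up to 0.167), and with the length offset its log2 fold change was 0.02. SKIL, the paralog of SKI, was the gene that was higher (0.30), and its call was lost on leaving out 5 of the 6 libraries. The lower count of the list was 3 without miR-155 replicate 2, Empty replicate 1 or Empty replicate 3, and 4 without Empty replicate 2 or miR-155 replicate 1, and with the length offset 5 were lower and 2 higher.

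In PI3K, AKT and mTOR signalling 5 of 34 genes were lower and 1 was higher (14.7% and 2.94%, against 4.81% and 2.82% of all genes), with a median of -0.123. RPS6KB1, the S6 kinase, fell from 99.5, 86.6 and 85.0 CPM to 65.1, 57.3 and 66.4 CPM, INPP4A, a phosphatase of phosphoinositides, from 55.7, 57.5 and 53.5 CPM to 40.7, 35.9 and 44.3 CPM, and FOXO3, the transcription factor that AKT restrains, from 80.3, 83.1 and 82.4 CPM to 60.4, 56.4 and 63.5 CPM. All 3 hold an 8mer and kept their calls on leaving out any library. The lower count was 3 on leaving out any library other than Empty replicate 1, and 5 with the length offset. Among 46 genes of RAS, MAPK and AP-1 signalling 4 were lower and 4 higher (8.7% each). MYC, which holds no site, fell from 186, 201 and 198 CPM to 132, 123 and 145 CPM (-0.55, adjusted p = 0.00604). JUND, an AP-1 subunit, rose from 106, 107 and 109 CPM to 164, 180 and 165 CPM (0.66, adjusted p = 0.000465), and DUSP1, a phosphatase of MAP kinases, from 27.4, 30.3 and 30.0 CPM to 42.1, 40.5 and 38.0 CPM (0.46, adjusted p = 0.00189). These 3 calls held on leaving out any library, and without miR-155 replicate 2 the list counted 2 lower and 2 higher, as it did without Empty replicate 2 or Empty replicate 3, and without Empty replicate 1 it counted 2 higher. With the length offset it counted 3 and 3.

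Chromatin regulators gave calls of single subunits. Of 30 Polycomb genes 3 were lower and 1 higher (10.0% and 3.33%, against 4.81% and 2.82% of all genes), and the median was 0.095. Without miR-155 replicate 2 the counts were 2 and 0, and with the length offset 2 and 1. Besides JARID2, PHC2, a subunit of Polycomb repressive complex 1 with an 8mer, went from 57.6, 63.1 and 60.1 CPM to 34.6, 38.8 and 37.1 CPM (log2 fold change -0.71, adjusted p = 1.07e-05). Of 37 histone lysine demethylases and methyltransferases 4 were lower and 0 higher by the edgeR test (0 also at an unadjusted p under 0.05 and by the DESeq2 Wald test), a lower share of 10.8%, with a median of -0.151 that was -0.011 with the length offset. The lower count was 3 without miR-155 replicate 2 and likewise 3 with the offset. KDM5B, a demethylase of histone H3 lysine 4 with 2 8mers, went from 111, 131 and 123 CPM to 74.0, 67.1 and 77.5 CPM (-0.74, adjusted p = 1.38e-05). KDM7A, with an 8mer, fell by 0.68 on the log2 scale. Of 32 SWI/SNF, NuRD and CoREST genes 2 were lower and 2 higher (6.25% each, the lower share near that of all genes), with a median of -0.011. Without miR-155 replicate 2 the counts were 2 and 0, and with the length offset 2 and 4. RCOR1, the scaffold of the CoREST complex, went from 73.4, 79.3 and 74.1 CPM to 46.6, 43.4 and 49.7 CPM (-0.70, adjusted p = 2.15e-05), and ARID2, a subunit of the PBAF form of SWI/SNF, from 61.5, 67.4 and 66.0 CPM to 41.7, 32.6 and 41.4 CPM (-0.75, adjusted p = 0.000313). In each of these the groups were apart and the call held on leaving out any library. The higher calls of CBX6, MBD3 and RCOR3, subunits of the Polycomb, NuRD and CoREST complexes, were lost on leaving out any of the 6 libraries for CBX6, any but miR-155 replicate 3 for MBD3 and any but Empty replicate 1 for RCOR3, at an adjusted p of up to 0.143, 0.179 and 0.141.

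BACH1 represses genes that detoxify heme and oxidants, and of 21 target enzymes and transporters of BACH1 and NRF2 measured 1 was lower and 1 higher by the edgeR test (2 and 6 at an unadjusted p under 0.05, 1 and 4 by the DESeq2 Wald test), shares of 4.76% each against 4.81% and 2.82% of all genes. BLVRB, biliverdin reductase B, had 52.0, 51.9 and 55.3 CPM with the empty vector and 70.2, 76.0 and 68.8 CPM with miR-155 (log2 fold change 0.43, adjusted p = 0.0221), and its call was lost without Empty replicate 1, Empty replicate 2 or miR-155 replicate 2 (adjusted p of up to 0.0887). TXNRD1, thioredoxin reductase, which holds a 7mer-A1 and overlaps 2 other genes, fell from 297, 309 and 315 CPM to 238, 215 and 223 CPM (-0.44, adjusted p = 0.0072). HMOX1, the heme oxygenase that BACH1 is best known to repress, was named after its values were seen. It had 11.6, 14.6 and 16.3 CPM in the controls and 21.3, 33.2 and 21.4 CPM with miR-155, and although all miR-155 libraries lay above all controls it did not pass the test (0.83, SE 0.299, adjusted p = 0.096). The ferritin subunits FTL (0.44, adjusted p = 0.065) and FTH1 (0.44, adjusted p = 0.057) did not pass either, and in both miR-155 replicate 2 was well above the other 2 miR-155 libraries.

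Calls among genes of the G1 to S transition went both ways. Cyclin D and its kinases CDK4 and CDK6 drive this step through RB and E2F, and the INK4 and CIP/KIP proteins inhibit it. Of 12 activators 4 were lower and 0 higher by the edgeR test, and of 16 inhibitors 2 were lower and 4 higher. Over the 28 genes the shares were 21.4% and 14.3%, against 4.81% and 2.82% of all genes. CCND1, cyclin D1, fell from 138, 158 and 155.4 CPM to 86.2, 86.6 and 93.3 CPM (log2 fold change -0.76, SE 0.0888, adjusted p = 1.73e-05). CDK6 fell from 99.8, 115 and 99.0 CPM to 73.8, 67.5 and 74.3 CPM (-0.54, adjusted p = 0.00148), E2F2 by 0.52 and E2F3 by 0.30 on the log2 scale. E2F2 holds an 8mer, CCND1 and E2F3 a 7mer-A1 and CDK6 a 6mer.

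CDKN1A, the CIP/KIP inhibitor p21, rose from 70.3, 71.5 and 76.3 CPM to 104, 106 and 104 CPM (log2 fold change 0.52, SE 0.0952, adjusted p = 0.00178). The miR-155 libraries were close together and far above the controls. CDKN2C, an INK4 inhibitor, had 68.5, 66.2 and 64.2 CPM and then 82.8, 108 and 81.8 CPM (0.46), with replicate 2 highest, and its call was lost without Empty replicate 2 (adjusted p = 0.0623), Empty replicate 3 (0.0697) or miR-155 replicate 2 (0.116). The call of CDKN2D (0.63) was lost without Empty replicate 2, Empty replicate 3 or miR-155 replicate 1 (adjusted p of up to 0.0851). The higher count of the list was 4, and 1 without Empty replicate 2 or Empty replicate 3 and 2 without miR-155 replicate 1 or miR-155 replicate 2. Without the last the list counted 5 lower, and with the length offset 7 lower and 4 higher. The 2 lower genes that the list counts as inhibitors were HBP1 and WEE1, both with an 8mer, although WEE1 mainly restrains entry into mitosis. The call of WEE1 was lost on leaving out 3 of the libraries. In 57 genes of DNA replication and mitosis 0 were lower and 1, GINS2, was higher by the edgeR test (1 lower and 13 higher at an unadjusted p under 0.05, 0 lower and 6 higher by the DESeq2 Wald test), and the call of GINS2 had an adjusted p of up to 0.196 on leaving out a library.

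CDKN1A is also a target of p53, and of 20 p53 response genes 5 were higher (25.0%, against 2.82% of all genes) and 0 lower by the edgeR test (11 higher and 0 lower at an unadjusted p under 0.05, 6 higher and 0 lower by the DESeq2 Wald test). The median was 0.201, and in the 3 miR-155 libraries taken singly it was 0.180, 0.184 and 0.190. In 12 of the 20 all miR-155 libraries lay above all controls, against 14.5% of all genes. DDB2, which recognises ultraviolet damage, rose from 36.5, 37.2 and 34.5 CPM to 51.3, 53.6 and 53.2 CPM (log2 fold change 0.55, adjusted p = 0.0044). GADD45A, a growth arrest gene, rose from 65.4, 52.6 and 54.1 CPM to 77.8, 82.7 and 77.3 CPM (0.47, adjusted p = 0.0373), and its call was lost without any 1 of 5 libraries. ZMAT3 (0.43) and FDXR (0.42), which complete the 5 and were named after their values were seen, held on leaving out any library. Without miR-155 replicate 2 the count was 5 and with the length offset 4. HEK293 cells carry adenoviral proteins that bind p53 and RB.

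**Figure D4:**
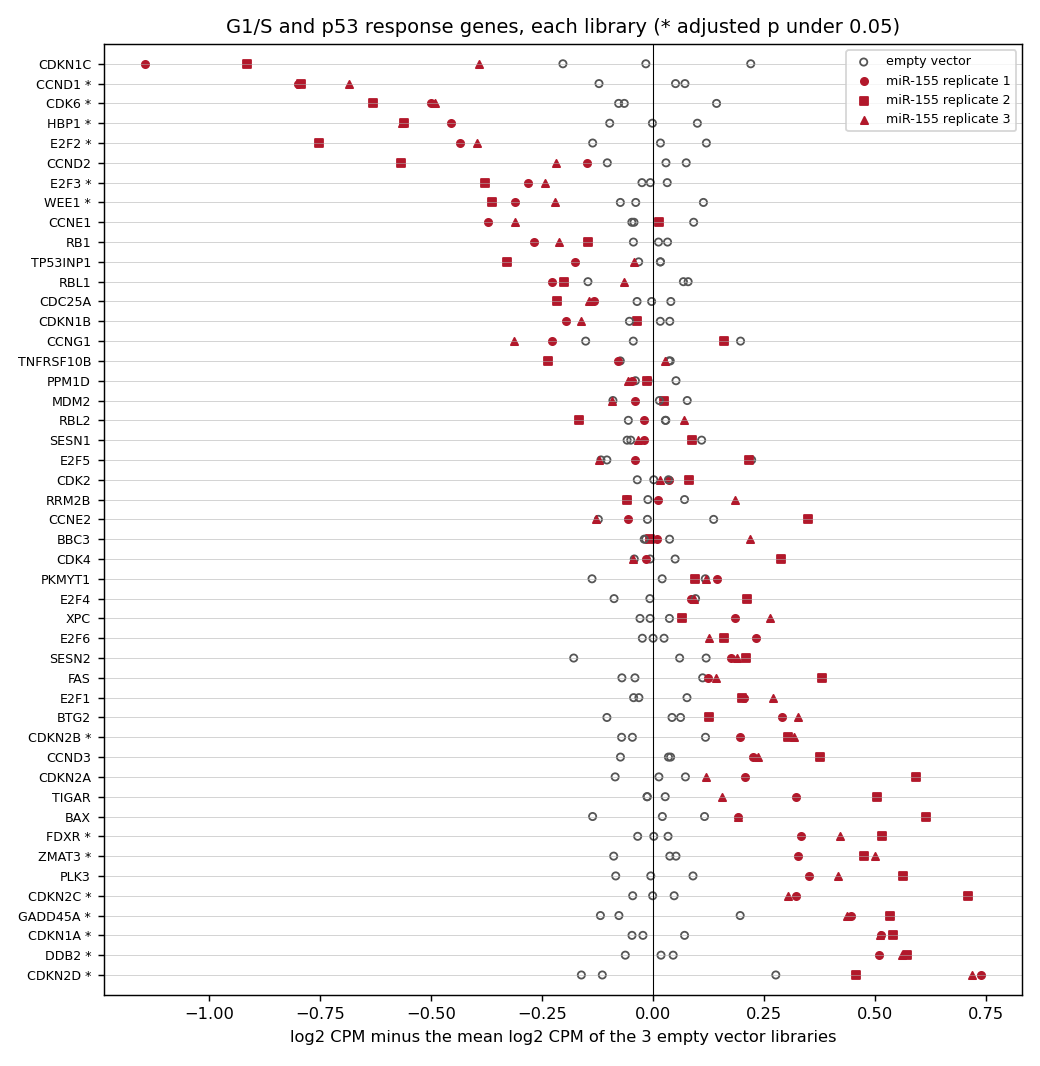
Each row is a gene of the G1 to S transition or of the p53 response, ordered by log2 fold change, and the horizontal axis gives log2 CPM in each library minus the mean log2 CPM of the 3 empty vector libraries. Open circles are the empty vector libraries, filled red symbols the 3 miR-155 libraries, and an asterisk marks an adjusted p under 0.05. CCND1, CDK6, E2F2 and E2F3 lie to the left, and CDKN1A, DDB2 and CDKN2D at the lower right.

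Apoptosis, hypoxia and metabolic genes gave few calls. BCL2, which protects from apoptosis, fell from 27.8, 29.0 and 26.6 CPM to 21.3, 15.6 and 20.7 CPM (adjusted p = 0.00571), and BCL2L11 (BIM), which promotes it, from 43.3, 46.5 and 45.7 CPM to 35.6, 31.3 and 34.9 CPM (adjusted p = 0.000978). BAD, also pro-apoptotic, rose from 34.5, 35.4 and 36.5 CPM to 47.6, 53.9 and 48.9 CPM (adjusted p = 0.00913). These were 3 of the 4 calls among 25 apoptosis genes, 2 lower and 2 higher (8.0% each, against 4.81% and 2.82% of all genes), which were 2 and 1 without miR-155 replicate 2 and 3 and 1 with the length offset. HIF1A, the hypoxia-inducible factor, fell from 195, 182 and 189 CPM to 142, 144 and 138 CPM (-0.42, adjusted p = 0.00264), and of 24 hypoxia response genes it was the 1 that was lower while SLC2A3 was the 1 that was higher. HK2, hexokinase 2, was the lower gene among 19 of glycolysis (-0.45), with 0 higher by the edgeR test (1 at an unadjusted p under 0.05, 0 by the DESeq2 Wald test). HMGCS1, which commits carbon to cholesterol and holds an 8mer, was the lower gene among 25 of cholesterol synthesis and went from 232, 189 and 226 CPM to 132.9, 119 and 151 CPM (-0.68, adjusted p = 0.00138). The median of that list was 0.138, so HMGCS1 moved against it.

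Over all genes 4.81% were lower and 2.82% higher, and the families of membrane receptors and matrix genes are given beside these shares. Of 26 receptor tyrosine kinases 5 were lower (19.2%) and 0 higher by the edgeR test (9 and 0 at an unadjusted p under 0.05, 7 and 0 by the DESeq2 Wald test), with a median of -0.104. EGFR had 29.0, 34.1 and 24.5 CPM in the controls and 14.3, 8.11 and 14.2 CPM with miR-155, 2.38-fold lower (adjusted p = 0.00144). All 12 libraries of the other miRNAs also lay below the controls for EGFR, at 11.1 to 24.0 CPM. Against those miRNAs its log2 fold change was -0.59, so the fall was in part shared by the other miRNA lines. FGFR3, without a site, had 51.6, 55.2 and 56.6 CPM and then 32.8, 23.6 and 30.2 CPM (log2 fold change -0.92, adjusted p = 6.62e-05). In both, miR-155 replicate 2 was the lowest library. RET, at 2.52 to 3.90 CPM in the controls and 0.612 to 1.56 CPM with miR-155, was 3.09-fold lower (adjusted p = 0.00607). These 3 calls held on leaving out any library, and the count of the list was 3 without miR-155 replicates 1 or 2 or Empty replicates 2 or 3, and 3 with the length offset.

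Of 28 Wnt pathway genes 5 were lower (17.9%, against 4.81% of all genes) and 0 higher by the edgeR test (8 and 2 at an unadjusted p under 0.05, 6 and 0 by the DESeq2 Wald test). NKD1, a feedback inhibitor of Wnt signalling and a gene that the pathway itself induces, fell from 6.75, 10.2 and 7.55 CPM to 3.33, 2.29 and 3.19 CPM (log2 fold change -1.47, adjusted p = 7.20e-05), and TCF7L2, the transcription factor that works with β-catenin, from 34.4, 32.5 and 31.2 CPM to 22.2, 27.2 and 23.0 CPM (-0.44, adjusted p = 0.0044). Both held on leaving out any library. The count of the list was 2 without miR-155 replicate 2 or Empty replicate 2, 3 without Empty replicate 1, Empty replicate 3 or miR-155 replicate 1, and 2 with the length offset. Among 60 collagens, laminins and integrins 7 were lower and 1 higher (11.7% and 1.67%), and 7 and 2 with the length offset. COL2A1 fell from 73.4, 81.8 and 76.0 CPM to 51.2, 32.1 and 50.6 CPM (-0.79, adjusted p = 0.000483), whereas COL12A1 rose from 6.45, 5.73 and 6.29 CPM to 19.7, 8.56 and 17.3 CPM (1.31, adjusted p = 0.00269). In this list of long genes, with a median exon length of 6370 bases, the median was -0.508 in miR-155 replicate 2 and -0.095 and -0.099 in replicates 1 and 3, and without replicate 2 only 2 were lower. Without Empty replicate 2 it was 4.

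Genes of the ZNF zinc finger family gave 30 lower and 2 higher among 435 (6.9% and 0.46%, against 4.81% and 2.82% of all genes), with a median of -0.131. The lower share is near that of all genes. Of these 30, 24 hold a 7mer or 8mer, as do 129 of the 435. ZNF468, an 8mer gene of a multicopy cluster whose paralogs can share reads, had 17.4, 17.4 and 17.8 CPM in the controls and 8.22, 9.10 and 6.59 CPM with miR-155 (log2 fold change -1.14, adjusted p = 2.18e-05). The lower count was 15 without miR-155 replicate 2, 19, 20 and 18 without Empty replicates 1, 2 and 3, and 24 with the length offset. ZNF365 was higher (1.57) although its best site is a 7mer-A1, and SLC4A8, a bicarbonate transporter, rose from 2.40, 2.90 and 3.43 CPM to 7.11, 5.05 and 5.24 CPM (1.00, adjusted p = 0.0047) although it holds the 8mer shown above. SLC4A8 and RAB39B were among the 4 called higher genes with an 8mer, against 192 called lower.

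**Figure D5:**
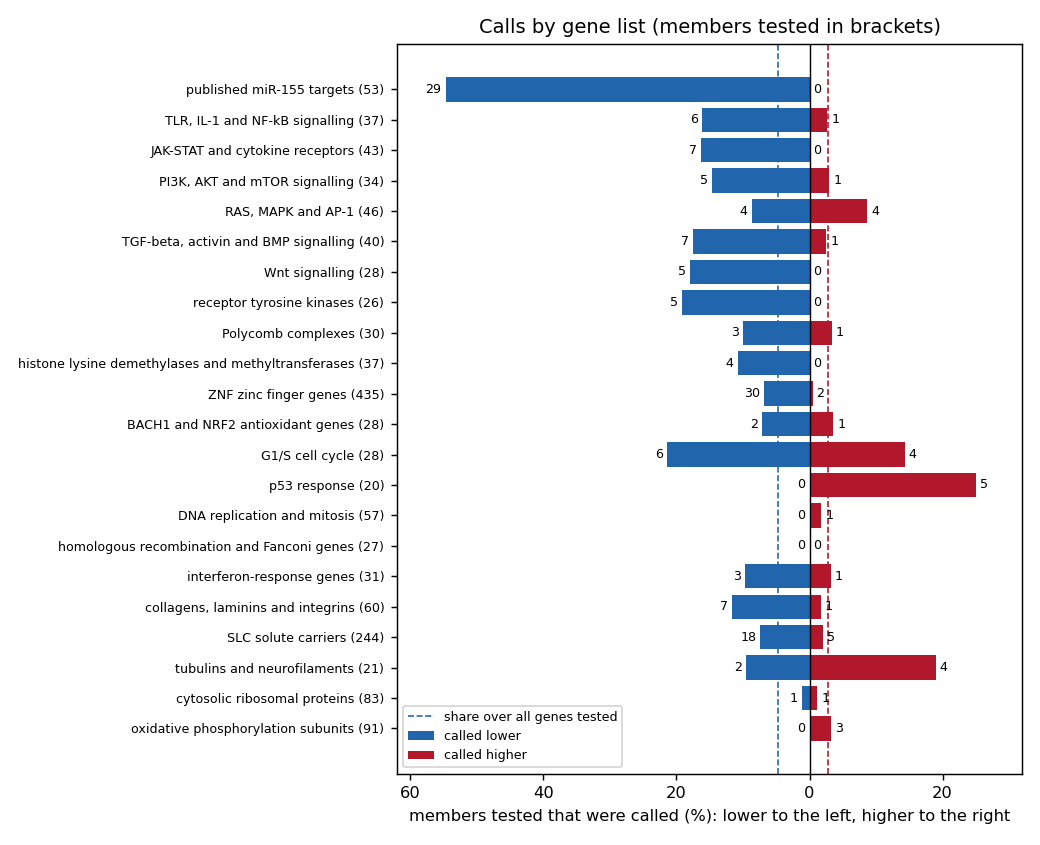
Share of measured members called lower (blue, to the left) and higher (red, to the right) at an adjusted p under 0.05, for 22 gene lists with the number of members tested in brackets. The number beside each bar is the count of calls, and the dashed lines mark the shares over all genes tested, 4.81% and 2.82%. Published miR-155 targets reach furthest to the left, with 29 of 53, and p53 response genes furthest to the right, with 5 of 20.

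Some differences were mostly those of 1 library. Among 91 subunits of oxidative phosphorylation, whose median exon length was 1515 bases, 3 were higher (3.3%, against 2.82% of all genes) and 0 lower by the edgeR test (52 higher and 0 lower at an unadjusted p under 0.05, 11 and 0 by the DESeq2 Wald test), with a median of 0.277. That median was 0.546 in miR-155 replicate 2 and 0.139 and 0.084 in replicates 1 and 3, and it was 0.107 without replicate 2 and 0.146 with the length offset. Without replicate 2 the edgeR test called 0 higher, as without Empty replicate 2 or Empty replicate 3, and it called 1 without Empty replicate 1, 6 without miR-155 replicate 1 and 18 without miR-155 replicate 3. SDHB, a subunit of complex II, shows this, with 129, 121.5 and 123 CPM in the controls and 158, 234 and 142 CPM with miR-155 (adjusted p = 0.0151, and 0.0913 without replicate 2). The 83 cytosolic ribosomal protein genes had medians of 0.341 in replicate 2 and -0.023 and -0.067 in the others, and the 73 mitochondrial ribosomal protein genes 0.441 against 0.057 and -0.013. Short genes were thus higher in replicate 2, and that library's part in the calls of long genes that fell and short genes that rose was not tested beyond leaving it out.

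Against the other 4 miRNAs of the batch, with no empty vector library in the contrast, 1681 genes were lower (12%) and 1832 higher (13%) with miR-155, and 1944 and 2181 without miR-372 replicate 2. This comparison shares the miR-155 libraries with the one above and takes up what the other miRNAs did, so the values are set side by side and no overlap is read from them. For BACH1 the log2 fold change was -1.11 against the empty vector and -1.10 against the other miRNAs, for JARID2 -1.16 and -1.33, for RFK -1.33 and -1.56, for CCND1 -0.76 and -0.75, and for SYT11 0.86 and 0.95. SLC2A3 (1.27 and 0.28), ZCCHC12 (0.85 and 0.18), SYNGR3 (0.95 and 0.39) and NTS (0.74 and 0.30) were higher by much less in the second comparison. SYNGR3 and NTS did not pass the edgeR test there (adjusted p = 0.059 and 0.070). EGFR (-1.25 and -0.59) and TMTC2 (-1.35 and -0.76) were lower by less in the second comparison. In TMTC2, too, all 12 libraries of the other miRNAs lay below the controls, at 11.59 to 19.85 CPM. Of the 53 published targets, 33 were lower and 3 higher than with the other miRNAs, and of the 20 p53 response genes 0 were lower and 9 higher.

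Interferon-response genes gave different pictures with the 2 references. Against the empty vector 3 of 31 were lower and 1 higher (9.68% and 3.23%, against 4.81% and 2.82% of all genes), with a median of -0.004. Against the other miRNAs 1 was lower and 13 higher, with a median of 0.272. Of all genes tested, 12% were lower and 13% higher than with the other miRNAs, so counts in that comparison are read beside these larger shares. OAS3, a sensor of double-stranded RNA, had a log2 fold change of -0.65 against the empty vector (12.2, 14.9 and 15.8 CPM in the controls, 10.5, 6.96 and 9.70 CPM with miR-155, adjusted p = 0.0151) and of 1.31 against the other miRNAs. Its call against the empty vector was lost without Empty replicate 2 (adjusted p = 0.0673), Empty replicate 3 (0.0789) or miR-155 replicate 2 (0.0913), and on leaving out any of these 3 libraries the lower count of the list was 0, and 1 without miR-155 replicate 1. IFI6, an interferon-induced mitochondrial protein, was higher in both comparisons (0.70 and 1.24), with 12.8, 11.5 and 11.5 CPM in the controls and 19.4, 20.5 and 18.3 CPM with miR-155. Of 14 genes of MHC class I and antigen processing 1 was lower and 0 higher than with the empty vector by the edgeR test (1 and 1 at an unadjusted p under 0.05, 1 and 0 by the DESeq2 Wald test), and 0 lower and 10 higher than with the other miRNAs. The lower gene was TAP1, a peptide transporter, and its call was lost without Empty replicate 2, Empty replicate 3, miR-155 replicate 2 or miR-155 replicate 3 (adjusted p of up to 0.118).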

How the data were processed

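RNA-seq libraries were poly(A)-selected and strand-specific. The authors aligned reads to hg19 with TopHat2 2.1.1 (per the submitters' processing notes), counted them over exons with featureCounts and deposited raw counts per gene. The exon length column of the deposited count table was used for length only. The authors' own comparison tables (log2 fold changes, p-values and q-values from edgeR 3.24.3) and batch 1 were not used.

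Samples were grouped by the labels. The test was edgeR 4.0.16 (R 4.3.3): filterByExpr with a minimum count of 10, TMM, and a quasi-likelihood fit of all 18 libraries of the batch (6 groups of 3, group as the factor), with Benjamini-Hochberg adjustment over all genes tested and a threshold of 0.05. Levels are CPM, listed in the order of replicates 1, 2 and 3. Log2 fold changes carry a prior count of 0.125, and each SE was obtained by dividing the fold change's size by the root of F. The functions were tested on simulated data. Replicates were separate transductions of 1 line, so p-values measure the spread between such cultures.

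Of 29794 identifiers, 28543 were matched to GENCODE on GRCh37 (hg19), and the longest annotated 3'UTR of 18434 genes was searched for seed matches. The miRNA is from RefSeq. Overlaps count genes on the same strand. A total of 14 list entries (IKBKE, MAP3K14, TXNIP and LHX1 among them) were not matched and are not analysed here. The values of a few measured genes that these rules name are not reported here.

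The members and all gene lists were chosen with earlier results of these data known, and lists are described by counts and medians, without a test. The naming rule took, among called genes with a mean log2 CPM of 3 or more and no overlap between the groups, the 12 lowest and the 12 highest. It also took the published miR-155 targets, the called members of each other list lowest and highest (at most 3 each way), and VAT1L, COL23A1 and ADCYAP1R1. CYLD, OTULIN, E2F2, E2F3, ZMAT3, FDXR, HMOX1, FTL and FTH1 were named after their values were seen.

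Alternatives were DESeq2 size factors, the DESeq2 1.42.0 Wald test, no filter, more than 1 CPM in each library as the filter, the 2 groups alone, the replicate number as a block, leaving out each library and, for sites, other classes, a minimum abundance and 10 classes of 3'UTR length. Offsets for exon length, from a lowess curve (span 0.3) per library, were added after the data were seen. A fit without miR-372 replicate 2 was also added. Between miR-155 and the empty vector, deviations of same-numbered libraries from their group means correlated at -0.091, -0.156 and 0.029 across genes. With miR-133a, miR-302a and miR-372 all 9 such correlations were over 0.1 (0.109 to 0.574), and with miR-373 they were -0.043, 0.188 and 0.311. The highest, 0.574, was between the replicate 2 libraries of miR-155 and miR-372, which both had an exon length slope of -0.10. Libraries of unlike number were not compared, so these values do not show whether the numbers pair libraries.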

Additional observations from a re-analysis of the deposited data

How the results depend on the processing

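The count of lower genes, 676, was 654 with DESeq2 size factors, 816 by the DESeq2 Wald test, 895 without a filter on low counts, 685 with a filter of more than 1 CPM, 546 in a fit of only the 2 groups, 628 with the length offsets, 894 without miR-372 replicate 2 and 973 with the replicate number as a block. It ranged from 359 to 608 on leaving out 1 of the 6 libraries compared, and 356 of the 359 left without Empty replicate 2 and 356 of the 370 left without miR-155 replicate 2 were among the 676. The count of higher genes, 397, was 597 by the Wald test, 690 with the replicate block, 627 without miR-372 replicate 2 and 236 in the fit of only the 2 groups, and it ranged from 135 to 383 on leaving out a library. It was 407 with DESeq2 size factors, 521 without a filter, 399 with more than 1 CPM and 397 with the length offsets. All 170 named genes that were called kept their call with the block. By the correlations given under the processing, same-numbered libraries were less alike between miR-155 and the empty vector than between miR-155 and 3 of the other 4 miRNAs. Whether the numbers pair libraries is not shown by them. The counts against the other 4 miRNAs stayed within 1.5 times of 1681 and 1832 in every alternative run, and were 2070 and 2251 with the replicate block.

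The difference in median log2 fold change between 8mer genes and genes without a site, -0.28, was -0.164 for 7mer-m8 and -0.15 for 7mer-A1 sites, -0.182 with the length offsets, -0.213 within 10 classes of 3'UTR length and -0.275 in genes at a mean log2 CPM of 5 or more. On leaving out a library it ranged from -0.298 to -0.234, the latter without miR-155 replicate 2. Of 170 named genes that were called, 166 kept their call with DESeq2 size factors, 142 with the length offsets and 102 to 139 on leaving out a library. SMAD2 changed sign with the length offsets (log2 fold change 0.022, adjusted p = 0.929), the only one of these 170 to do so in the alternatives run for them.

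Whether the exon length slope of miR-155 replicate 2 came from RNA quality, library making or the cells was not tested. Genes that overlap others on the same strand, or that have near-identical copies, cannot be told apart from their neighbours where reads are shared. The site counts rest on the longest annotated 3'UTR, and the isoform that the cells use was not measured here. With 3 libraries a group, leaving out any of these 6 lowered the counts of calls in both directions.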

Other observations

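Genes of vesicle traffic, the cytoskeleton and lysosomes, which the comparisons above do not cover, gave scattered calls. PICALM, an adaptor of clathrin coats with a 7mer-m8, fell from 83.0, 86.5 and 89.5 CPM with the empty vector to 58.5, 58.6 and 61.0 CPM with miR-155 (log2 fold change -0.54, adjusted p = 0.000306), and PAK2, a kinase downstream of RAC and CDC42 with an 8mer, from 104, 109 and 104 CPM to 65.4, 67.6 and 70.2 CPM (-0.64, adjusted p = 3.36e-05). MITF, a transcription factor of lysosome and melanocyte genes with an 8mer, fell by 0.77 on the log2 scale, and KIF5C, a kinesin of neurons without a site, rose by 0.54. All of these calls held on leaving out any library. Of 21 genes listed with the tubulins and neurofilaments, TUBGCP3 and VIM (vimentin) among them, 4 were higher and 2 lower (19.0% and 9.52%, against 2.82% and 4.81% of all genes). These counts were 1 and 0 without miR-155 replicate 2 or Empty replicate 2, 2 and 1 without Empty replicate 3, and 3 and 2 with the length offset.

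The RNA-binding and translation lists gave few calls. EIF5A2, the inducible copy of the translation factor eIF5A, with a 7mer-m8, fell from 16.2, 15.2 and 15.5 CPM to 8.42, 8.72 and 9.35 CPM (-0.82, adjusted p = 0.000163). HNRNPA3, a nuclear RNA-binding protein with an 8mer, fell from 435, 375 and 416 CPM to 266, 286 and 285 CPM (-0.55, adjusted p = 0.000234), and was the 1 called gene of 32 SRSF and HNRNP splicing factors. Of 13 genes of miRNA biogenesis and silencing 0 were called by the edgeR test (4 lower and 1 higher at an unadjusted p under 0.05, 0 by the DESeq2 Wald test). Of 601 long non-coding RNA genes 7 were lower and 2 higher, shares of 1.16% and 0.333% against 4.81% and 2.82% of all genes, and of 33 HOX genes 0 were called (1 lower and 3 higher at an unadjusted p under 0.05, 1 and 1 by the DESeq2 Wald test).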
